A study of Mus musculus with 7 samples.

Results

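Retinoic acid synthesis and binding genes were examined in granulosa cell-depleted ovarian tissue (stromal tissue) of mice with and without the progesterone receptor (PGR). The 9 genes were chosen by name, out of 52230 genes with a matched transcript, and all 9 were found and passed the filter on low counts. They were the 3 retinaldehyde dehydrogenases *Aldh1a1*, *Aldh1a2* and *Aldh1a3*, the retinol and retinal converting enzymes *Rdh10* and *Dhrs3*, the binding proteins *Rbp4*, *Crabp1* and *Crabp2*, and the retinoic acid hydroxylase *Cyp26b1*.

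RNA-seq was available for 4 WT (PGR +/+) and 3 KO (PGR -/-) libraries, all from females of the PRKO strain (Pgrtm1Bwo), in which *Pgr* is disrupted in every cell of the animal. All females were immature, 21 to 27 days old by the sample labels and 21 to 25 days by the series text. All received 5 IU PMSG, also called eCG, a gonadotropin that drives follicle growth. After 44 h they received 5 IU hCG, which acts as the ovulatory LH surge, and ovaries were taken 8 h after hCG. Follicles were punctured to remove granulosa cells, and each library was made from the residual ovaries of 3 pooled mice. The tissue thus held stromal, theca, endothelial and immune cells together, and RNA of granulosa cell and oocyte markers was also present. By the labels, WT has replicates 1 to 4 and KO replicates 2 to 4.

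Retinoic acid is made from vitamin A in 2 oxidation steps. Retinol reaches cells bound to RBP4 and is oxidised to retinal by RDH10, a step that DHRS3 runs in reverse. The ALDH1A enzymes then oxidise retinal to retinoic acid, which CRABP1 and CRABP2 bind in the cell and CYP26 enzymes remove. CRABP2 is known for handing retinoic acid to its nuclear receptors, the RARs. In the ovary retinoic acid is best known as the signal that starts meiosis in fetal germ cells, and *Aldh1a1* is commonly used as a marker of theca cells.

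Libraries held 47372446 to 63416875 assigned read pairs. *Pgr*, the disrupted gene, had 22.2 ± 6.16 CPM in WT (SD, n = 4; CPM is the read count relative to the library size, which was scaled by the TMM method) against 6.74 ± 0.736 CPM in KO (SD, n = 3), and all KO values were lower than all WT values (log2 fold change -1.72, adjusted p = 0.0544 in edgeR and 1.25e-14 in DESeq2). Markers of other cell types were compared between genotypes as lists, since the tissue is mixed. All 6 smooth muscle and pericyte markers had a negative fitted change in KO, 4 of them with an unadjusted p under 0.05 in edgeR, and their summed TPM was 1480 to 1760 in WT and 1080 to 1430 in KO. All 6 theca markers also had a negative fitted change, 1 of them (*Star*) with an unadjusted p under 0.05. All 8 oocyte markers had a positive one, 3 of them with an unadjusted p under 0.05, at a summed TPM of 227 to 320 in WT and 291 to 402 in KO. The sums of the 10 granulosa markers (2230 to 3040 in WT, 2710 to 3610 in KO) and the 8 leukocyte markers (121 to 145 and 110 to 150) overlapped. Of the 9 surface epithelium markers 1 (*Upk3b*), of the 6 endothelial markers 2 (*Cdh5* and *Tek*) and of the 7 fibroblast markers 1 (*Tcf21*) were lower in KO at an unadjusted p under 0.05 in edgeR, and of the 4 oviduct and 5 red blood cell markers none was. The fitted change was negative for 8 of the 9 surface epithelium, 5 of the 6 endothelial and 6 of the 7 fibroblast markers. It was positive for all 5 red blood cell markers and for 3 of the 4 oviduct markers. Granulosa (5 higher, 5 lower) and leukocyte markers (4 higher, 4 lower) were evenly split. The part of all these lists in the results below was not tested, except for theca and granulosa markers as stated.

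Salmon assigns reads to transcripts by their sequence, so it matters how alike the genes are. *Aldh1a1* lies on chromosome 19 of GRCm39 from 20469539 to 20622825, and *Aldh1a7*, a close relative, lies beside it on the other strand from 20667107 to 20704932. Their coding sequences, 1506 bases each, were identical at 1380 bases (91.6%). Of the 1476 stretches of 31 bases in the coding sequence of *Aldh1a1*, 279 (18.9%) occurred unchanged in that of *Aldh1a7*, and none in that of *Aldh1a2* or *Aldh1a3*. *Crabp1* (chromosome 9, 54671171 to 54680403) and *Crabp2* (chromosome 3, 87855973 to 87860683) were identical at 293 of 414 aligned coding bases (70.8%) and shared no stretch of 31 bases. The first 90 coding bases of each pair (GENCODE M39, 5′ to 3′) are given to show this contrast, with the bases that differ within a pair in capitals, 5 in the *Aldh1a1* pair and 30 in the *Crabp1* pair.
Aldh1a1: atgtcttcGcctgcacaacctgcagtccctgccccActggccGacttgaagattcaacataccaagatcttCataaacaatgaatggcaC
Aldh1a7: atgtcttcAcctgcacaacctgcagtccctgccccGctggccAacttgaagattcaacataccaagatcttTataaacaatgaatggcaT
Crabp1: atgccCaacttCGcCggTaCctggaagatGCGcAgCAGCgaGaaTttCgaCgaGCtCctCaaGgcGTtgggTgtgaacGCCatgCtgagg
Crabp2: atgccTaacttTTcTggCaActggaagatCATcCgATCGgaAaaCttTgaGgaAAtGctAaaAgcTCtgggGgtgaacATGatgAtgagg

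The 9 genes covered a wide range of levels. On the TPM scale, which divides by transcript length and so compares genes, the mean over the 7 libraries was 357 ± 129 TPM for *Aldh1a1* (SD, n = 7), with a lowest library of 223 TPM. *Aldh1a2* followed at 65.0 ± 4.84 TPM, *Rbp4* at 50.6 ± 4.91 TPM and *Dhrs3* at 40.6 ± 4.34 TPM. *Crabp2* had 28.5 ± 13.2 TPM and *Rdh10* 20.5 ± 2.56 TPM. The other 3 genes were scarce, *Cyp26b1* at 4.12 ± 0.879 TPM, *Aldh1a3* at 2.86 ± 0.344 TPM and *Crabp1* at 1.83 ± 0.480 TPM. The ranges of neighbours in this order overlapped, except that the lowest library of *Aldh1a1* was above the highest of *Aldh1a2*, and the lowest of *Rdh10* above the highest of *Cyp26b1*. *Aldh1a2* was nevertheless above *Rbp4*, and *Rbp4* above *Dhrs3*, within each of the 7 libraries. *Dhrs3* was above *Crabp2* in 5 of 7 libraries, and the 2 exceptions were KO libraries 2 and 4. The level of *Crabp2* was also above that of *Rdh10* in 5 of 7 libraries, all but WT libraries 1 and 3.

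**Figure D1:**
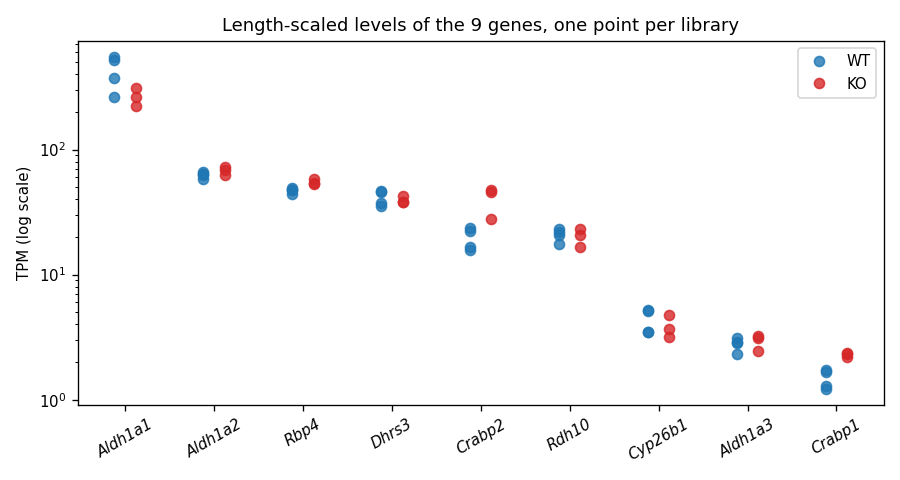
Level of each of the 9 genes in TPM on a log axis, ordered by the mean over 7 libraries; each point is 1 library, blue for WT (4) and red for KO (3). *Aldh1a1* stands above all other genes. On this scale, which has no TMM scaling, all KO points lie above all WT points for *Crabp2*, *Rbp4* and *Crabp1*. The share of all genes separated in this way in TPM was not computed.

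KO and WT libraries were compared to ask which retinoid genes differ in stromal tissue that lacks PGR. The test was edgeR's quasi-likelihood test, and a gene was called where its adjusted p did not exceed 0.05 and its log2 fold change was 0.5 or more in size. None of the 9 genes was called in edgeR, where the lowest adjusted p was 0.19 and 3 genes had an unadjusted p under 0.05. In DESeq2, the test that the study used, 1 of 9 was called (*Crabp2*). The study also excluded some called genes by their expression in granulosa cells, a step not applied here. Of all 19233 genes tested, 2 (0.0104%) were called by edgeR and 144 (0.749%) by DESeq2, and the share at an unadjusted p under 0.05 was 8.94% in edgeR. The log2 fold change was positive for 5 and negative for 4 of the 9 genes, with a median of 0.05 beside -0.001 over all genes. In CPM, the KO and WT ranges did not overlap for 2 of the 9 genes, *Crabp1* and *Crabp2*, both with KO higher. Among all genes this was seen for 9.05%, with 3.93% higher and 5.12% lower in KO.

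**Figure D2:**
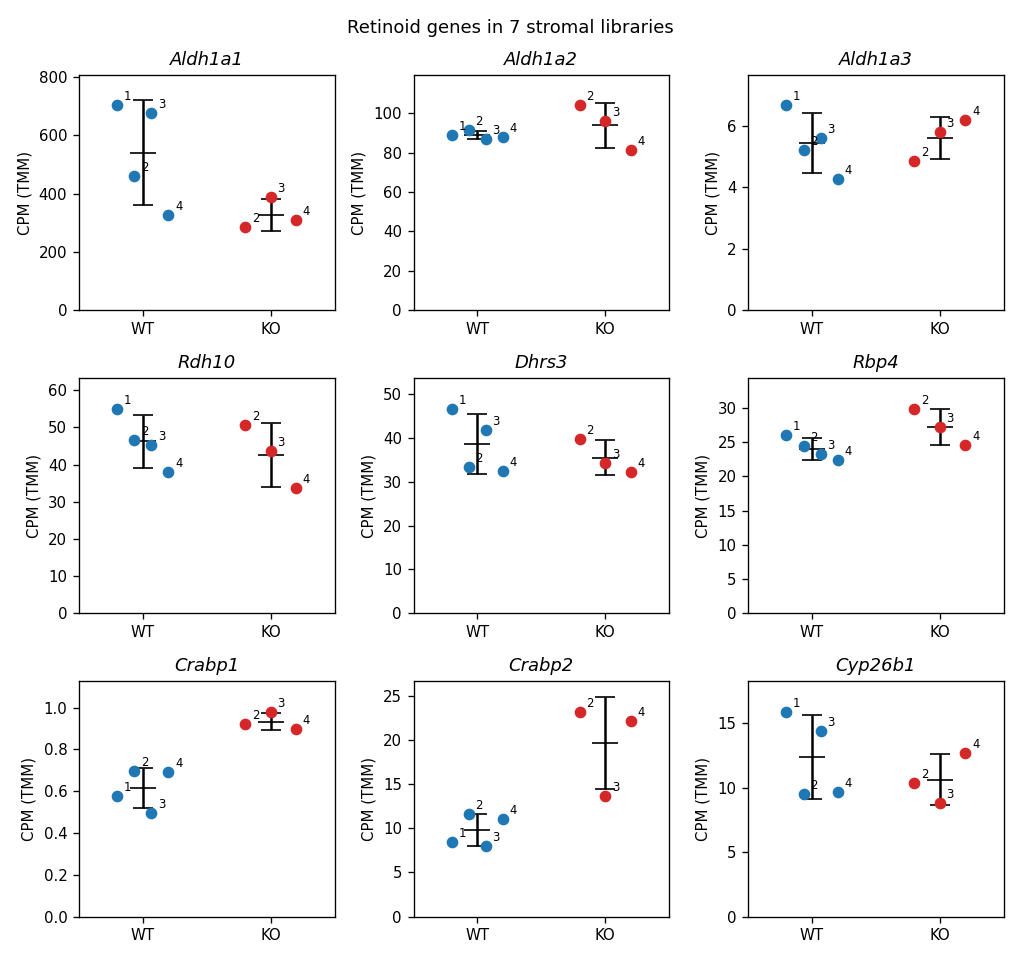
CPM of each of the 9 genes in every library, with the replicate number beside each point; the line and bar give the mean ± SD of 4 WT (blue) and 3 KO (red) libraries, and each axis starts at 0. All 3 KO points lie above all 4 WT points for *Crabp1* and *Crabp2*, while in *Aldh1a1* WT library 4 lies among the KO points.

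Among the binding proteins, *Crabp2* had the largest difference of the 9 genes. It was measured at 8.40, 11.6, 8.02 and 11.1 CPM in WT libraries 1 to 4 and at 23.2, 13.7 and 22.2 CPM in KO libraries 2 to 4. Every KO library was above every WT library, with KO library 3 closest to WT. WT libraries averaged 9.79 ± 1.84 CPM (SD, n = 4), and KO libraries 19.7 ± 5.20 CPM (SD, n = 3), which is 201% of the WT average. The log2 fold change was 1.01 (standard error 0.198, 95% interval 0.56 to 1.46, unadjusted p = 0.000687, adjusted p = 0.19 in edgeR). DESeq2 gave the same log2 fold change of 1.01 with an adjusted p of 0.000261. In edgeR the gene was also called without the filter on low counts (adjusted p = 0.0459), so the call depended on the test and on the filter. On log2 CPM the two-sided exact permutation test gave p = 0.0286, the smallest p that 4 against 3 libraries allow. Behind these values stood 437 to 692 reads per WT library and 658 to 1333 per KO library, and 99.1% of the reads of the gene were assigned to 1 transcript (Crabp2-201, 4 exons).

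With 1 library left out at a time, the log2 fold change of *Crabp2* stayed between 0.88 and 1.22. The granulosa marker *Bex4* was the only 1 of the 10 granulosa markers with an unadjusted p under 0.05 in edgeR, and it was higher in KO. With the mean of the granulosa markers as a covariate, the log2 fold change of *Crabp2* was 1.08. With the mean of the theca markers as a covariate, which nearly separated the genotypes, it was 0.485 (standard error 0.42), and that of *Crabp1* was 0.288. In a bulk sample a change in the number of cells of a type and a change in RNA per cell cannot be told apart.

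*Crabp1*, the related binding protein, was the scarcest of the 9 genes. Its level was 0.576, 0.695, 0.497 and 0.691 CPM in WT libraries 1 to 4 and 0.921, 0.979 and 0.897 CPM in KO libraries 2 to 4. The KO libraries lay close together and above all WT libraries. WT libraries averaged 0.615 ± 0.0962 CPM (SD, n = 4), and KO libraries 0.932 ± 0.0424 CPM (SD, n = 3). This gave a log2 fold change of 0.60 (95% interval 0.18 to 1.02, adjusted p = 0.376 in edgeR and 0.403 in DESeq2). The exact permutation test gave p = 0.0286. These values came from 28 to 43 reads per WT library and 47 to 53 per KO library, and the 95% exact Poisson interval was 18.6 to 40.5 for the 28 reads of WT library 3 and 34.5 to 62.5 for the 47 reads of KO library 3. Such intervals cover counting error only. *Crabp2* made up 92.4% to 93.3% of the summed TPM of both genes in WT and 92.1% to 95.4% in KO, so it was the main form in every library.

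The promoters that RefSeq lists for these genes (GRCm38.p6, 250 bases before to 50 after a start) were searched for the sites of retinoic acid receptors and of steroid receptors. Of the 9 genes, 6 had entries, with 10 promoters in all, and *Aldh1a3*, *Rdh10* and *Crabp2* had none. None of the 10 held a direct repeat of the retinoid receptor half-site at a searched spacing. The half-site was A or G, then G, then G or T, then TCA. Spacings were 5, 2 and 1 bases (DR5, DR2 and DR1) on either strand, and 0.1%, 0.27% and 0.22% of all 32851 promoters held them. At such low shares, absence from 10 promoters is no result about these genes. The palindromic core ACANNNTGT, which reads the same on both strands and is shared by the progesterone, glucocorticoid and androgen receptors, was found in 1 of the 10 and in 6.85% of all promoters, so the count is near the share over all promoters and is no result about these genes. The promoter with the match, that of *Crabp1* (chr9:54764498-54764797 of GRCm38.p6, plus strand, 5′ to 3′), is given to show what such a match looks like, with the match in capitals.
Crabp1 promoter: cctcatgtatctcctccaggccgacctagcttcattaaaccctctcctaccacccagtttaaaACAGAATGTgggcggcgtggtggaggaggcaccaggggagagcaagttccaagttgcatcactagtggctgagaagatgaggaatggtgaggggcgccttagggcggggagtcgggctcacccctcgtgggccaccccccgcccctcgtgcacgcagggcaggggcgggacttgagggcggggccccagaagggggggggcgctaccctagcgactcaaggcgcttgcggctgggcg

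*Rbp4* encodes the protein that carries retinol in blood, and it is also made outside the liver. It was measured at 26, 24.4, 23.3 and 22.4 CPM in WT libraries 1 to 4 and at 29.9, 27.2 and 24.6 CPM in KO libraries 2 to 4. KO library 4 lay within the WT range, and the other 2 KO libraries lay above it. All KO libraries (52.8 to 58.6 TPM) were above all WT libraries (44.5 to 49.1 TPM) on the TPM scale, so the overlap depended on the scale. TPM takes up effective lengths and has no TMM scaling. In limma on log2(TPM + 0.1), 1036 of all genes were higher and 460 lower in KO at an unadjusted p under 0.05. These counts were 739 and 981 in edgeR. The log2 fold change of *Rbp4* in edgeR was 0.18 (95% interval -0.01 to 0.37, adjusted p = 0.568 in edgeR), and 0.184 with effective length offsets. The source of the difference between scales was not tested. *Ttr*, the partner of RBP4 in blood, had at most 1 read in any library, so it was near absent. *Rbp4* is also known from fat tissue, and the 8 adipocyte markers summed to 38.0 to 48.5 TPM in WT and 39.2 to 45.3 TPM in KO. Most of this came from *Plin1* (24.3 TPM on average), *Fabp4* (9.43 TPM) and *Retn* (6.65 TPM), while *Adipoq*, *Lep* and *Cidec* were under 1 TPM in all 7 libraries. WT library 3 stood apart, with 20 reads of *Adipoq* against 2 to 4 in the other libraries, 81 of *Cfd* against 0 to 16 and 139 of *Car3* against 8 to 27. The level of *Rbp4* in that library (23.3 CPM) was within the range of the other WT libraries. Of the 5 adipocyte markers tested, 1 (*Fabp4*) was lower in KO at an unadjusted p under 0.05 in edgeR.

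Among the enzymes that make retinoic acid, *Aldh1a1* had the highest level and the widest spread. It was measured at 702, 460, 675 and 325 CPM in WT libraries 1 to 4 and at 284, 389 and 308 CPM in KO libraries 2 to 4. WT libraries 1 to 3 lay above all KO libraries, and WT library 4 lay within the KO range. WT libraries averaged 541 ± 180 CPM (SD, n = 4), and KO libraries 327 ± 55.1 CPM (SD, n = 3), which is 60.5% of the WT average. The log2 fold change was -0.73 (95% interval -1.30 to -0.15, unadjusted p = 0.0184, adjusted p = 0.428 in edgeR and 0.342 in DESeq2), and the exact permutation test gave p = 0.114. Without WT library 4 the log2 fold change was -0.90 and the adjusted p 0.222 in edgeR. *Aldh1a7* had 4.69 to 8.42 CPM in WT and 4.13 to 6.24 CPM in KO (log2 fold change -0.46, adjusted p = 0.573 in edgeR), and *Aldh1a1* held 98.0% to 98.9% of the summed TPM of this pair. With the reads of both genes added, the log2 fold change was -0.72 (adjusted p = 0.427 in edgeR).

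Levels of *Aldh1a1* were set beside those of the 6 theca markers in each library, and 2 of these, *Cyp17a1* and *Insl3*, shared its low WT library 4. *Cyp17a1*, the enzyme of androgen synthesis in theca cells, had 1200, 903, 1160 and 467 CPM in WT libraries 1 to 4 and 431, 674 and 655 CPM in KO libraries 2 to 4. *Insl3*, a theca hormone, had 48.6, 39.2, 43.8 and 20.5 CPM in WT libraries and 25.0, 31.4 and 25.0 CPM in KO libraries. As for *Aldh1a1*, WT library 4 was the lowest WT library for both genes. The ratio of *Aldh1a1* to *Cyp17a1* in TPM ranged from 0.444 to 0.611 in WT libraries and from 0.410 to 0.572 in KO libraries, which overlap. The ratio to *Insl3* was 2.75 to 3.74 in WT and 2.65 to 2.90 in KO. The other theca markers did not share this order. WT library 4 was the highest WT library for *Star* (1920 CPM), *Cyp11a1* (7280 CPM) and *Hsd3b1* (3380 CPM), and *Lhcgr* had 618 CPM in KO library 4 beside 336 and 374 CPM in the other KO libraries. The summed TPM of the 6 theca markers was 7850 to 11000 in WT and 7180 to 8920 in KO. With their mean log2 CPM as a covariate, the log2 fold change of *Aldh1a1* was 0.27 with a standard error of 0.535. This covariate nearly separated the genotypes (r = -0.90 with KO over 7 libraries, variance inflation 5.5), so its part and that of genotype cannot be told apart. As the 6 markers did not share 1 order, their mean is no direct measure of theca content.

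**Figure D3:**
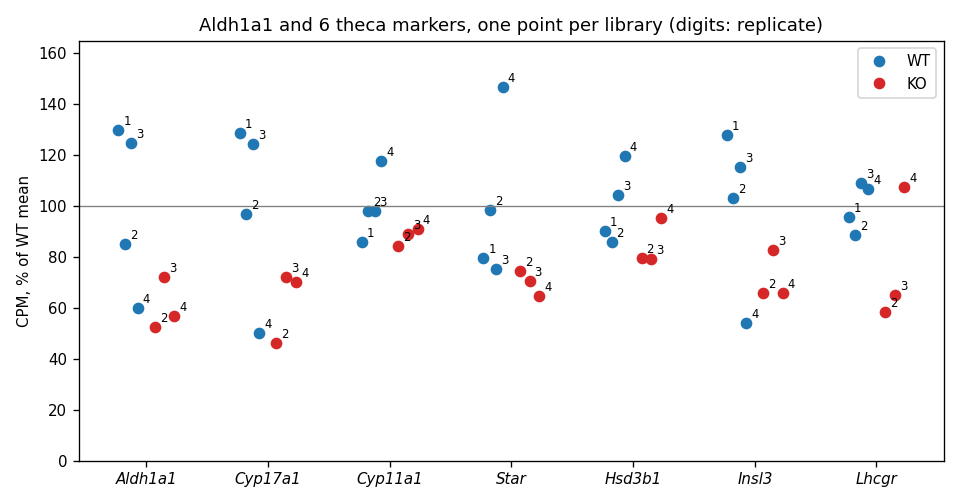
CPM of *Aldh1a1* and of 6 theca markers in each library as a percentage of the WT mean of that gene (grey line at 100), with replicate numbers beside the points. *Aldh1a1*, *Cyp17a1* and *Insl3* share the low position of WT library 4, which is the highest WT library for *Star*, *Cyp11a1* and *Hsd3b1*.

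The other dehydrogenases varied less. *Aldh1a2*, the main retinaldehyde dehydrogenase of the embryo, had 89.2, 91.7, 87.1 and 87.9 CPM in WT libraries and 104, 96.3 and 81.3 CPM in KO libraries 2 to 4. The KO libraries lay on both sides of the narrow WT range, and the log2 fold change was 0.08 (95% interval -0.10 to 0.26, adjusted p = 0.828 in edgeR). *Aldh1a3* ranged from 4.29 to 6.67 CPM in WT and from 4.86 to 6.19 CPM in KO, and its log2 fold change was 0.05 (95% interval -0.31 to 0.41, adjusted p = 0.959 in edgeR). The summed TPM of the 3 enzymes was 577, 445, 613 and 328 in WT libraries 1 to 4 and 299, 384 and 330 in KO libraries 2 to 4. *Aldh1a1* made up 80.0% to 89.4% of this sum in WT and 74.7% to 81.3% in KO, and *Aldh1a2* 10.1% to 19.3% and 17.9% to 24.4%. The share of *Aldh1a3* was under 1% in every library, at 0.476% to 0.713% in WT and 0.805% to 0.987% in KO.

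*Rdh10* and *Dhrs3* overlapped between genotypes. *Rdh10* ranged from 37.9 to 55.0 CPM in WT and from 33.6 to 50.7 CPM in KO, and its log2 fold change was -0.12 (95% interval -0.46 to 0.23, adjusted p = 0.865 in edgeR). *Dhrs3*, which is itself induced by retinoic acid in many cells, ranged from 32.4 to 46.6 CPM in WT and from 32.2 to 39.8 CPM in KO, and its log2 fold change was -0.12 (95% interval -0.43 to 0.18, adjusted p = 0.836 in edgeR). Its reads were divided among transcripts, with 44.4% on Dhrs3-207, 30.7% on Dhrs3-206 and 18.8% on Dhrs3-201, a transcript annotated as a target of nonsense-mediated decay. The share of Dhrs3-207 was 37.1% to 47.9% in WT and 43.3% to 46.7% in KO.

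*Cyp26b1*, which removes retinoic acid, was measured at 15.9, 9.52, 14.4 and 9.71 CPM in WT libraries 1 to 4 and at 10.4, 8.81 and 12.7 CPM in KO libraries 2 to 4. WT libraries 1 and 3 were the highest, and the other libraries of both genotypes overlapped. The log2 fold change was -0.22 (95% interval -0.68 to 0.25, adjusted p = 0.806 in edgeR). Of its reads, 62.6% were assigned to Cyp26b1-205 and 37.2% to Cyp26b1-204, and the share of Cyp26b1-205 was 52.3% to 70.2% in WT and 55.3% to 75.3% in KO. The other *Cyp26* genes were near absent, as *Cyp26a1* had 0.0332 to 0.229 TPM over the 7 libraries and *Cyp26c1* at most 2 reads in any library. The other degradation genes of the pathway list were more abundant than *Cyp26b1*, with *Cyp2s1* at 19 TPM and *Cyp1b1* at 115 TPM on average.

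Genes with the most similar pattern to each member of at least 10 TPM were sought among 14883 genes by Pearson's r of log2 CPM over the 7 libraries. They were *Otud1* (r = 0.989) and *Fastkd5* (0.985) for *Aldh1a1*, *Or2d2* (0.972) and *Gm17530* (0.962) for *Aldh1a2*, and *Epb41l4aos* (0.974) and *Atp6v0b* (0.972) for *Rdh10*. For *Dhrs3* they were *Hapln3* (0.995) and *Dpagt1* (0.992), for *Rbp4* *Polm* (0.990) and *Junb* (0.983), and for *Crabp2* *Gm42890* (0.990) is given. With 7 libraries and so many genes, such values are given as a description only. The libraries share their genotype and cell make-up in these comparisons.

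The rest of the retinoid pathway was described with a list of 90 further genes, of which 89 were found by symbol and 70 passed the filter. None was called by edgeR. As the list was chosen with earlier results of these data known, the shares given for it and for its groups by role are a description only. Of the 70, 13 (18.6%) had an unadjusted p under 0.05, 5 with a positive and 8 with a negative log2 fold change, where 8.94% of all genes had such a p. DESeq2 called 3 of them (*Adh7*, *Rdh1* and *Rarres1*), and 0.749% of all genes. The median log2 fold change of the 70 genes was 0.02. The KO and WT ranges did not overlap for 11 of the 70, 6 with KO higher and 5 with KO lower, where the shares over all genes were 9.05%, 3.93% and 5.12%.

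Among the 16 tested enzymes of retinol and retinal conversion, 1 had a positive and 3 a negative log2 fold change at an unadjusted p under 0.05 (25.0% in all, beside 8.94% of all genes). *Adh7*, an alcohol dehydrogenase that acts on retinol, was measured at 58.5, 56.6, 48.3 and 49.2 CPM in WT libraries 1 to 4 and at 75.0, 78.6 and 73.1 CPM in KO libraries 2 to 4. Every KO library was above every WT library, and the log2 fold change was 0.51 (95% interval 0.33 to 0.69, adjusted p = 0.111 in edgeR and 2.1e-05 in DESeq2). *Rdh1*, a retinol dehydrogenase, had 1.86, 1.95, 2.22 and 3.50 CPM in WT and 1.29, 1.40 and 1.17 CPM in KO, a log2 fold change of -0.90 (adjusted p = 0.318 in edgeR and 0.0492 in DESeq2). *Rdh11* (log2 fold change -0.34) and *Rdh16f1* (-1.11) were the other genes with a negative change at that p, with adjusted p values of 0.399 and 0.489 in edgeR. *Rdh16f1* had 4.95 CPM in WT library 4 and 1.33 CPM in WT library 1, which was within the KO range of 0.813 to 1.55 CPM. The most abundant enzymes of this group, *Adh1* at 451 TPM and *Akr1b8* at 268 TPM, had log2 fold changes of 0.15 and 0.13 (adjusted p = 0.657 and 0.700 in edgeR).

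Of the 17 tested genes known to respond to retinoic acid, 1 was higher and 2 were lower in KO at an unadjusted p under 0.05 (17.6% in all, beside 8.94% of all genes). *Rarres1*, a retinoid-induced membrane protein gene, had 1.79, 3.20, 1.65 and 1.82 CPM in WT libraries 1 to 4 and 0.834, 0.979 and 0.707 CPM in KO libraries 2 to 4. Here the highest KO library was below the lowest WT library, and the log2 fold change was -1.33 (95% interval -1.94 to -0.72, adjusted p = 0.207 in edgeR and 0.00147 in DESeq2). *Tgm2*, a transglutaminase gene induced by retinoic acid, had 204 to 267 CPM in WT and 171 to 172 CPM in KO, a log2 fold change of -0.43 (adjusted p = 0.207 in edgeR and 0.00214 in DESeq2), below the size needed for a call. *Btg2*, an antiproliferative gene, had 213 to 269 CPM in WT and 288 to 387 CPM in KO, a log2 fold change of 0.44 (adjusted p = 0.314 in edgeR and 0.0284 in DESeq2). *Rarres2*, the most abundant gene of the group at 289 TPM, had a log2 fold change of -0.11 (95% interval -0.49 to 0.28). *Stra8*, the retinoic acid target of germ cells entering meiosis, had no read in any library.

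The nuclear receptors for retinoic acid were expressed, and none of the 9 tested receptor genes had an unadjusted p under 0.05 in edgeR. *Rxrb* had 42.6 TPM, *Rarg* 23.8 TPM and *Rara* 21.9 TPM on average, while *Rarb* had 0.234 to 0.577 TPM. *Rarg* had a log2 fold change of 0.18 (95% interval -0.02 to 0.39) and *Rxrb* of 0.04 (95% interval -0.08 to 0.16). For *Rara* the ranges did not overlap, at 38.4 to 39.1 CPM in WT and 39.7 to 41.8 CPM in KO, and its log2 fold change was 0.07 (95% interval -0.04 to 0.17, adjusted p = 0.733 in edgeR). Among the 7 cofactors, *Pnrc1* was higher in KO at an unadjusted p of 0.0359 in edgeR (log2 fold change 0.23, adjusted p = 0.514).

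In uptake and transport, *Stra6l*, a retinol-binding protein receptor, had 0.537 to 1.03 CPM in WT and 1.07 to 1.42 CPM in KO (log2 fold change 0.82, adjusted p = 0.395 in edgeR), and *Lrp2*, an endocytic receptor, had 1.26 to 2.09 CPM in WT and 0.816 to 1.36 CPM in KO (-0.77, adjusted p = 0.395). The related receptor *Stra6* had 3.55 to 5.01 TPM over the 7 libraries with a log2 fold change of -0.11. The most abundant genes of this group were *Scarb1* at 1410 TPM (log2 fold change -0.22) and *Fabp5* at 87.1 TPM (0.08). Among the genes of retinoid storage, *Dgat1* had a log2 fold change of -0.18 (unadjusted p = 0.0463, adjusted p = 0.546 in edgeR) and *Lpl* of 0.06. *Aox1*, an aldehyde oxidase gene, had 12.7 to 19.3 CPM in WT and 20.6 to 22.7 CPM in KO (log2 fold change 0.34, adjusted p = 0.5 in edgeR). *Cyp1b1*, a cytochrome P450 that can oxidise retinol, had 381 to 411 CPM in WT and 294 to 361 CPM in KO (-0.31, adjusted p = 0.314 in edgeR and 0.0451 in DESeq2), and *Cyp2s1* had a log2 fold change of -0.10.

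**Figure D4:**
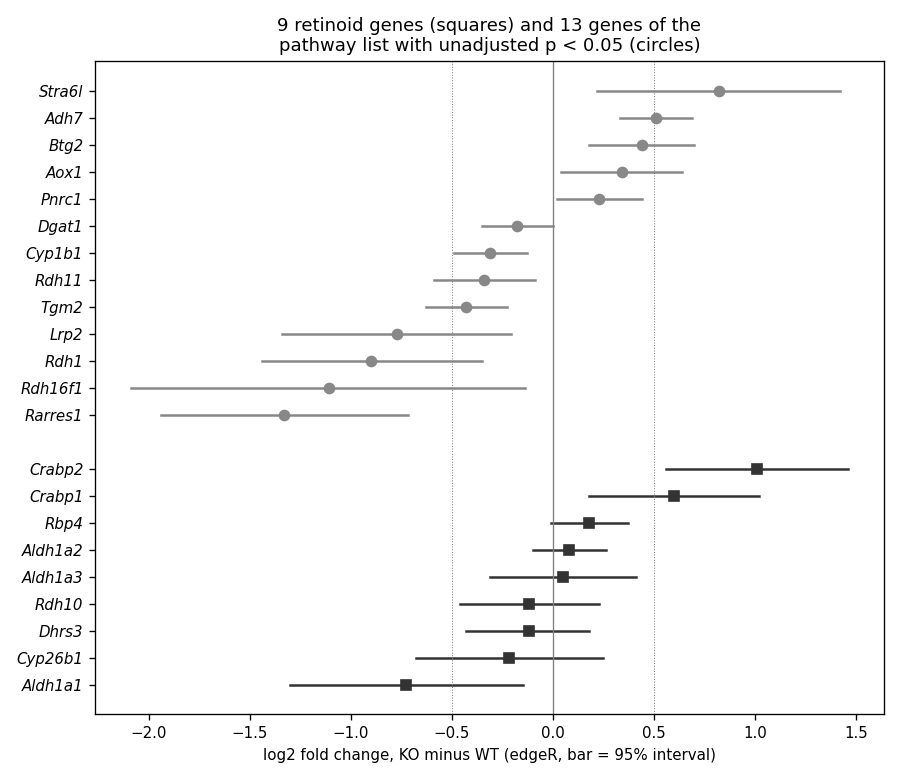
Log2 fold change of KO against WT with its 95% interval in edgeR for the 9 genes (squares) and for the 13 genes of the pathway list with an unadjusted p under 0.05 (circles, chosen by that p); dotted lines mark the fold change of 0.5 needed for a call. The intervals of *Crabp2* (0.56 to 1.46), *Crabp1* and *Aldh1a1* lie off 0, and those of the other 6 genes include 0.

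**Figure D5:**
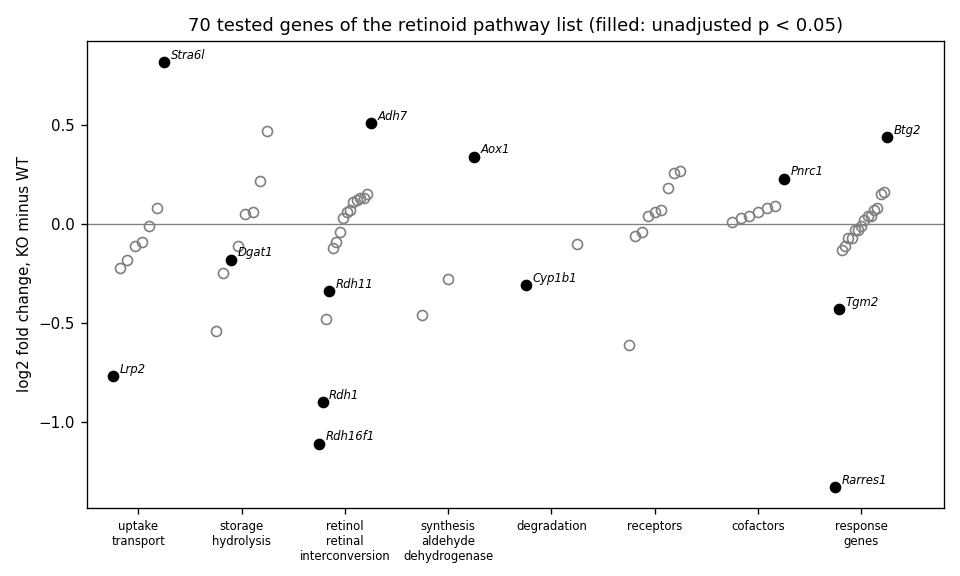
Log2 fold change of KO against WT in edgeR for the 70 tested genes of the pathway list, grouped by role, with filled points for the 13 genes at an unadjusted p under 0.05. Points lie on both sides of 0 except among the 7 cofactors (all above) and the degradation group (below). That group held only 2 tested genes, *Cyp1b1* and *Cyp2s1*, as *Cyp26a1* and *Cyp26c1* did not pass the filter. *Rarres1* (-1.33) and *Stra6l* (0.82) are the lowest and the highest.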

How the data were processed

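The authors deposited, for each of 7 libraries, Salmon's expected counts (estimated read pairs per transcript) and TPM, made from 100 bp paired-end reads of stranded mRNA libraries with the GENCODE M26 transcriptome on GRCm39; the Salmon version is not given in the sources used here. Transcripts were matched by identifier to GENCODE M39 on GRCm39 (137570 of 139225, 98.8%), and expected counts, rounded, and TPM were summed per gene. Read totals ran from 47372446 to 63416875 per library.

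KO (n = 3) and WT (n = 4) were compared with edgeR 4.0.16 in R 4.3.3 (TMM, filterByExpr, quasi-likelihood test, two-sided, Benjamini-Hochberg adjustment over 19233 genes, which is the adjusted p throughout); the standard error is the absolute log2 fold change over the square root of F. DESeq2 1.42.0 and limma 3.58.1 (voom, and log2(TPM + 0.1)) were alternatives, with other filters, offsets, covariates, a replicate block and left-out libraries. Code was tested on simulated data. Replicates are pools of different mice.

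The 9 genes and the lists were chosen with earlier results of these data known. Genes of the pathway list were named if their unadjusted p was under 0.05 or if they were among the 2 most abundant of their role; *Rara*, *Rarb*, *Stra6*, *Stra8*, *Ttr*, *Cyp26a1* and *Cyp26c1* were named after their values were seen, and so were single markers of other cell types. Some genes that these rules select are not reported here.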

Additional observations from a re-analysis of the deposited data

Results flagged for a closer look

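In WT, 1 library stood far from the other 3 for 3 of the 40 genes checked, by the gap to its nearest library as a share of the group's range, where chance gives about 1 in 20 groups. For *Stra6l* this share was 0.915, from WT library 3 with 1.03 CPM beside 0.537 to 0.579 CPM in the other WT libraries. For *Rarres1* it was 0.89, from WT library 2 with 3.20 CPM beside 1.65 to 1.82 CPM. For *Btg2* it was 0.857, from WT library 3 with 213 CPM beside 261 to 269 CPM.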

How the results depend on the processing

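Alternatives numbered 17 for each result. *Dhrs3* and *Crabp1* kept their direction and stayed uncalled in all 17. *Crabp2* kept its direction in all 17 and was called in 3, with log2 fold changes of 1.01 with DESeq2, 1.02 without a filter on low counts (adjusted p = 0.0459 in edgeR) and 0.93 (0.925) with replicate number as a block (adjusted p = 0.0362 in edgeR). Over the alternatives its adjusted p ran from 0.000261 to 0.955. With the theca marker mean as a covariate the log2 fold change was 0.266 for *Aldh1a1*, 0.272 with *Aldh1a7* added, -0.264 for *Aldh1a2*, -0.042 for *Rbp4* and 0.468 for *Cyp26b1*, all of the opposite sign to the values without it, and 0.485 for *Crabp2*; this covariate nearly separates the genotypes. *Aldh1a3* was -0.022 with the granulosa marker mean.

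With 1 library left out at a time, log2 fold changes ran from -0.897 to -0.566 for *Aldh1a1*, -0.004 (without KO library 2) to 0.17 for *Aldh1a2*, -0.045 to 0.17 for *Aldh1a3* (negative without WT library 4, at -0.045, or KO library 4, at -0.026), -0.26 to 0.032 for *Rdh10* (positive without KO library 4), 0.105 to 0.253 for *Rbp4*, -0.359 (without KO library 4) to -0.068 (without WT library 1) for *Cyp26b1*, -0.214 (without KO library 2) to -0.01 (without WT library 1) for *Dhrs3*, 0.507 to 0.669 for *Crabp1* and 0.877 to 1.218 for *Crabp2*. The count of called genes was 2 in edgeR, 144 with DESeq2, 36 without a filter, 6 with at least 10 counts in every library, 26 with the block, 0 with the theca covariate (1128 genes had an unadjusted p under 0.05 there), 4 with the granulosa covariate, and 1 to 4 with 1 library left out (1 without WT library 3 or KO library 2, 4 without WT library 4). Pathway list calls were 0 in edgeR, 3 with DESeq2 and 1 without a filter. The cause of these differences was not tested.

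The labels of same-numbered libraries share only a number, and whether such libraries share a batch is not stated. Their deviations from the group means correlated at -0.03, 0.10 and 0.07, beside -0.11 to 0.07 for WT and KO libraries of unlike number. The block raised the count of calls from 2 to 26. At 28 to 53 reads per library, depth limits *Crabp1*. Reads per library were also few for genes of the pathway list, at 27 to 68 for *Stra6l*, 42 to 105 for *Lrp2* and 41 to 161 for *Rarres1*. They were 39 to 308 for *Rdh16f1* and 67 to 218 for *Rdh1*.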
